A study of Mus musculus with 8 samples.

Results

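Oligodendrocyte precursor nuclei were described in 8 single-nucleus RNA libraries of mouse forebrain, as the nuclei that carried precursor transcripts and almost no transcripts of neurons. A nucleus was a member when it held 500 to 8000 UMIs (unique molecular identifiers, each counting 1 captured RNA molecule) from 300 genes or more, with no more than 5% of them mitochondrial. It also had to show at least 2 of the genes Pdgfra, Vcan, Cspg4, Neu4, Lhfpl3, Megf11 and Shc4, with at least 4 UMIs over them and at least 1 UMI of Pdgfra or Cspg4. At most 1 UMI was allowed over the neuron genes Rbfox3, Snap25, Slc17a7, Slc17a6, Gad1 and Gad2, and 0 UMIs over Mog, Mag, Aqp4 and Cx3cr1, which mark mature oligodendrocytes, astrocytes and microglia. The rule kept 621 of 53390 barcodes, or of 36521 nuclei past the limits on depth and mitochondrial share. These 17 genes chose the nuclei, so their levels are given below as a description.

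The tissue was a 2 mm cube of forebrain next to the lesion, from male Swiss Webster mice aged 10 weeks, and each of 4 groups had 2 libraries that the labels call biological replicates. The groups had control surgery, BCAS surgery, TBI surgery, or both of the last in combination (BCAS+TBI). TBI is traumatic brain injury; BCAS, which the labels do not spell out, is the usual abbreviation of bilateral carotid artery stenosis, a narrowing of both carotid arteries that lowers blood flow to the forebrain. The labels do not say how long after surgery the tissue was taken, what the control surgery was, or how many mice went into a library. The comparisons ask what each surgery, and both together, did to the number and the transcripts of precursor nuclei.

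Oligodendrocyte precursors are dividing glial cells spread through grey and white matter. The growth factor receptor Pdgfra and the proteoglycan Cspg4 (NG2) mark them, and they carry glutamate and GABA receptors through which neurons signal to them. A part of them leaves the precursor state, passes through a committed stage marked by Gpr17, Bcas1 and Enpp6, and forms myelin. After injury of the brain they are known to divide and to move towards the lesion.

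The members held 86 and 66 nuclei in the control libraries, 70 and 58 in BCAS, 90 and 76 in TBI, and 88 and 87 in BCAS+TBI. Together they gave 1456403 UMIs, between 126917 and 233483 per library, with a median of 1624.5 to 2925.5 UMIs per nucleus. Levels below are in CPM, the UMIs of a gene in the summed nuclei of a library, scaled to a total of 1000000. In the sum of all members 1 UMI was therefore worth 4.28 to 7.88 CPM, and more where only a part of them was summed. The libraries fell into 2 sets that differed in depth. Set 1 is the first library of each group with a single or no injury and the second BCAS+TBI library, with 28118725 to 33363564 UMIs per library, and set 2 is the other 4, with 42651388 to 56135192. Every group has 1 library in each set. The labels name no batch. In the summed member nuclei 640 of 4784 genes tested (13.4%) differed between the sets, and the first principal component, with 37.4% of the variance, separated them. Libraries shared 5 to 20 barcodes per pair, and members of different libraries shared 0.

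Levels of Tnr and Olig2, which the rule does not read, bore out the label. At least 2 UMIs over Olig1, Olig2, Sox10, Sox6, Ptprz1, Tnr, Xylt1, C1ql1 and Matn4 were present in 613 of the 621 nuclei. Nuclei of other kinds that reach this limit were not counted, so it does not by itself set precursors apart. Excitatory neurons held 351 to 455 CPM of Tnr and 154 to 212 CPM of Xylt1. Ptprz1, a receptor phosphatase of glial precursors, lay between 2253 and 3482 CPM over the 8 libraries and was detected in 96.5% of members. Tnr, the extracellular matrix protein tenascin-R, lay between 2821 and 4052 CPM, against 37.5 to 491 CPM in 911 astrocyte nuclei and 10.2 to 431 CPM in 1785 mature oligodendrocyte nuclei. Olig2, the transcription factor of the whole lineage, lay between 69.6 and 236 CPM, and in 3158 excitatory neuron nuclei between 0.376 and 2.20 CPM. Sox10, a second lineage factor, lay between 233 and 478 CPM in the members and between 199 and 409 CPM in mature oligodendrocytes, so the 2 ranges overlapped. Ptprz1 was also high in astrocytes, at 1698 to 2208 CPM, where the ranges did not overlap.

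**Figure D1:**
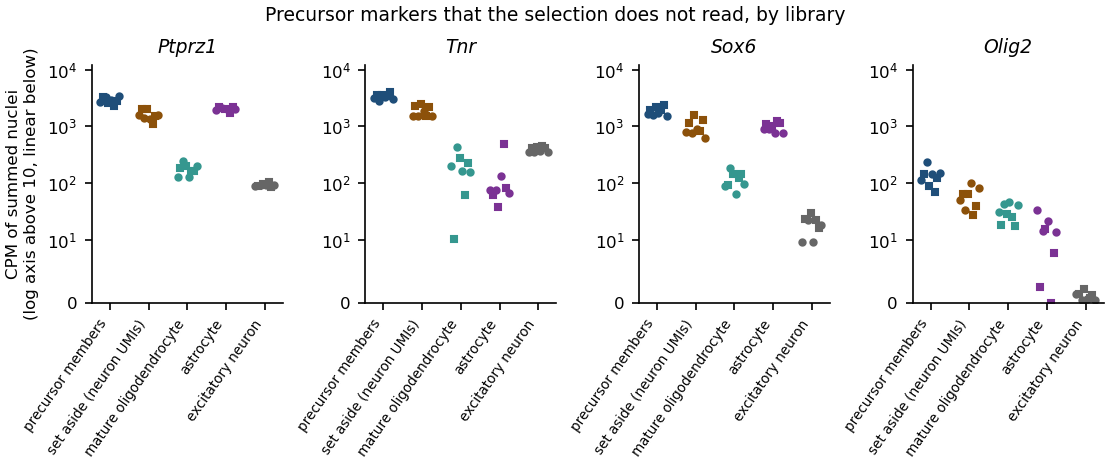
Level (CPM of the summed nuclei, log axis above 10 and linear below) of 4 precursor markers that the selection did not read, in 5 kinds of nuclei, 1 point per library (circles set 1, squares set 2). Tnr and Olig2 stand higher in the precursor members than in the other glia and neurons in all 8 libraries, while Ptprz1 and Sox6 are also high in astrocytes.

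The genes that the rule reads were found at uneven frequency. Lhfpl3, a tetraspan membrane protein, was detected in 98.9% of members and Pdgfra in 91.6%. Cspg4 was detected in 64.4% and Neu4, a sialidase, in 32.4%. Pdgfra lay between 751 and 1471 CPM over the libraries and Cspg4 between 398 and 599.9 CPM. Just inside the marker threshold, 12 members held 4 UMIs of the marker genes, and 8 nuclei outside held 3.

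Markers of neurons, microglia, mature oligodendrocytes and vascular cells summed to low levels in the members, and those of astrocytes to a higher one. The 14-gene neuron list summed to 1481 to 3452 CPM, against 18511 to 20105 CPM in excitatory neuron nuclei and 1061 to 2407 CPM in mature oligodendrocytes. The microglia list summed to 29.8 to 236 CPM and the mature oligodendrocyte list to 224 to 843 CPM, against 13559 to 19991 CPM in mature oligodendrocyte nuclei. The astrocyte list reached 4009.5 to 6180.3 CPM, against 17991 to 25413 CPM in astrocyte nuclei and 1194 to 2592 CPM in mature oligodendrocytes. 6 of its 10 genes passed the count filter in members. At least 2 UMIs of this list were present in most members of every library, from 79 of 86 in control 1 to 58 of 58 in BCAS 2. The fibroblast list summed to 12.3 to 139.8 CPM and the mural list (pericytes and vascular smooth muscle) to 15.8 to 163 CPM.

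A large part of the nuclei with precursor markers was set aside by the neuron limit. Of 1312 nuclei that met the marker part of the rule, 333 had a UMI of Mog, Mag, Aqp4 or Cx3cr1, and a further 358 had 2 or more neuron UMIs. The set-aside part of the nuclei that met all other criteria was 24.6%, 25.5%, 29.1% and 31.5% in the libraries of set 1 and 37.1%, 50.4%, 46.9% and 42.1% in those of set 2. The 2 sets do not overlap in this share, and set 2 is the deeper one.

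The values around the neuron limit changed in steps. The 348 members with 0 neuron UMIs had 1937 CPM of the neuron list, which holds none of the 6 genes the limit reads, and the 273 members with 1 had 2167 CPM. The 134 nuclei just outside, with 2, had 2966 CPM and kept 10874 CPM of the precursor markers, close to the 11119 CPM of members with 1 neuron UMI. The 113 nuclei with 3 to 5 had 7732 CPM of the neuron list, and the 111 with 6 or more had 17143 CPM, while their precursor markers were at 7718 and 2578 CPM. The median depth went from 2018.5 UMIs in members with 0 neuron UMIs to 5874 in nuclei with 6 or more. The nuclei just outside the limit thus resembled members in the precursor markers and stood above them in the neuron list. Those with 6 or more resembled neurons in the neuron list.

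**Figure D2:**
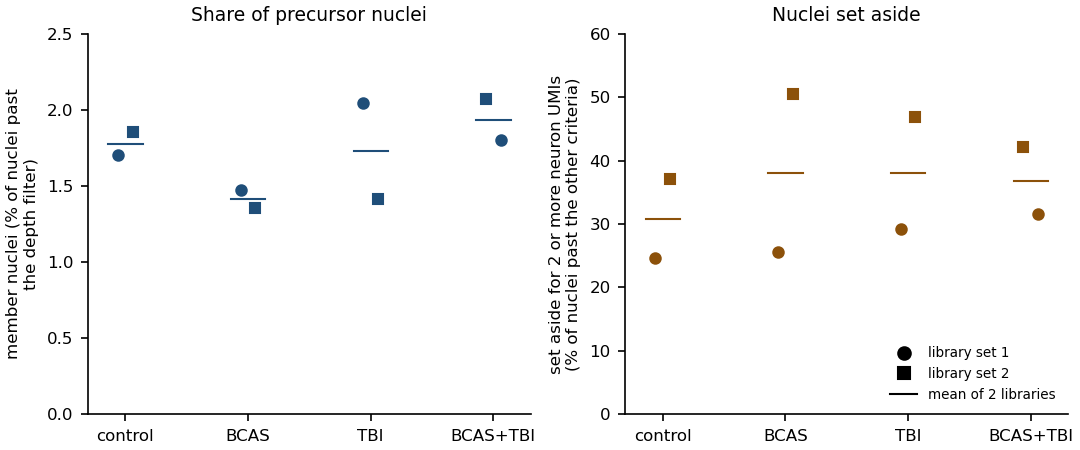
Left, member nuclei as a percentage of the nuclei past the depth filter. Right, nuclei set aside for 2 or more neuron UMIs as a percentage of the nuclei that met all other criteria. Each point is a library (circles set 1, squares set 2) and each line the mean of 2 libraries. The groups overlap on the left, and on the right the squares lie above all circles.

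The share of precursor nuclei did not separate the surgeries. It was 1.70% and 1.85% of the nuclei past the depth filter in the control libraries, 1.47% and 1.36% in BCAS, 2.05% and 1.41% in TBI, and 2.07% and 1.80% in BCAS+TBI. The lowest and the highest library both have a wide counting error: 1.36% has a Wilson 95% interval of 1.05% to 1.75%, and 2.07% one of 1.68% to 2.54%. Libraries with TBI averaged 1.83% ± 0.305 (SD, n = 4) and those without 1.60% ± 0.224 (SD, n = 4), a difference of 0.235 points (exact two-sided permutation test, p = 0.257). The difference was 0.336 points within set 1 and 0.135 within set 2, and 0.155 to 0.375 with 1 library left out. Counting only members with 0 neuron UMIs it was 0.0197 points, at 0.110 in set 1 and -0.0703 in set 2. Libraries with BCAS averaged 1.67% ± 0.323 and those without 1.75% ± 0.268 (SD, n = 4 each), a difference of -0.0787 points (exact permutation p = 0.743) that had opposite signs in the 2 sets, at -0.237 and 0.0792. The smallest p this design can give is 0.0286. The p-values measure the spread between libraries, and the labels call these biological replicates.

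Gene by gene, no transcript passed the test in the member nuclei for any surgery. UMIs were summed over the members of each library and 4784 genes were tested with edgeR's quasi-likelihood test, with Benjamini-Hochberg adjustment over all of them. Averaged over BCAS, TBI called 0 genes (0.0% of those tested) at an adjusted p under 0.05. BCAS averaged over TBI, the interaction of the 2 surgeries (the TBI effect with BCAS minus that without), and each surgery group against control also called 0 genes (0.0%). BCAS+TBI against TBI and any difference among the 4 groups called 0 genes (0.0%) as well. Unadjusted p-values under 0.05 numbered 34 to 98 per comparison, below the share of 0.05 of the 4784 genes that chance alone would give. The fit without a set term is thus conservative, and 0 calls do not show that no transcript changed. DESeq2 called 0 genes in each of the 8, with 1 to 17 unadjusted p-values under 0.05.

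With the library set as a term in the fit, between 0 and 4 genes passed per comparison. The biological coefficient of variation was 0.249 without this term and 0.110 with it. TBI averaged over BCAS still called 0 genes (0.0%), with 203 unadjusted p-values under 0.05, and BCAS+TBI against control also 0 (0.0%), with 221. BCAS averaged over TBI called 3 genes (0.0627%), the interaction 3 (0.0627%), TBI against control 1 (0.0209%), BCAS against control 2 (0.0418%) and BCAS+TBI against TBI 2 (0.0418%). Any difference among the 4 groups called 4 (0.0836%). DESeq2 with the same term called 0 genes in each of the 8, and so did edgeR over the 348 members with 0 neuron UMIs. The 3 genes called for BCAS averaged over TBI were called again in the members with at least 1000 UMIs, while 1 of the 3 called for the interaction was. The called genes are Ptgds, Trpm3, Clstn2, Malat1, mt-Rnr1 and mt-Rnr2.

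Ptgds, the enzyme that makes prostaglandin D2 (chr2:25466709-25470046, minus strand, GRCm38), had the interaction with the smallest adjusted p. Its level was 303 and 229 CPM in the control libraries, 812 and 658 in BCAS, 696 and 194 in TBI, and 77.1 and 398 in BCAS+TBI. Both BCAS libraries stood above both control libraries, and the TBI and BCAS+TBI libraries overlapped. With 2 libraries on each side such an order is common, and its share over all genes was not counted. The interaction was -2.46 on the log2 scale with the set term (SE 0.41, edgeR adjusted p = 0.00232) and -2.42 without it (adjusted p = 1). BCAS against control was 1.50 (SE 0.28, adjusted p = 0.0229 with the set term). In mature oligodendrocyte nuclei of the same libraries Ptgds lay between 792 and 7253 CPM.

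Trpm3, a cation channel (chr19:22139046-22995410, plus strand), had an interaction of -1.80 (SE 0.37, adjusted p = 0.0435 with the set term). Its level was 499 and 527 CPM in the control libraries, 315 and 1305 in BCAS, 846 and 726 in TBI, and 428 and 300.4 in BCAS+TBI. BCAS 2 stood far above the other 7 libraries, and without that library the interaction was -0.39 (adjusted p = 0.978).

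A large part of the UMIs of these 2 genes lay in a few nuclei with vascular transcripts. Fibroblasts of the brain's linings carry Pdgfra and Vcan, and mural cells carry Cspg4, so the rule can admit both. At least 2 UMIs of the fibroblast or mural lists were present in 21 of the 621 members: 1 and 3 in the control libraries, 2 and 5 in BCAS, 5 and 1 in TBI, and 3 and 1 in BCAS+TBI. These 21 nuclei held 4.33% of all member UMIs, but 320 of the 574 UMIs of Ptgds (55.7%) and 416 of the 916 of Trpm3 (45.4%). They also held 41 of 41 UMIs of the fibroblast gene Ranbp3l and 17 of 26 of the pericyte gene Rgs5. Single nuclei carried up to 66 UMIs of Ptgds and up to 94 of Trpm3.

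The 21 nuclei were not of 1 kind. Among them 16 also had at least 2 UMIs of the precursor markers outside the rule, and 18 had Lhfpl3. The other 5 had 0 or 1 such UMIs, and they are 5 of the 8 members that failed this marker check. 1 nucleus of BCAS 2 had 10 fibroblast and 7 mural UMIs, 94 UMIs of Trpm3, 34 of Ptgds and 0 precursor marker UMIs. 1 nucleus of control 2 had 6 fibroblast UMIs beside 41 precursor marker UMIs and 21 of Lhfpl3. Whether such nuclei are 1 cell or 2 in a droplet was not tested.

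Without the 21 nuclei the Ptgds and Trpm3 interactions were close to 0. Ptgds was then at 253 and 66.7 CPM in the control libraries, 328 and 101 in BCAS, 257 and 81.3 in TBI, and 80.5 and 403 in BCAS+TBI. In each group the set 1 library was the higher one, as it was with all members. The interaction was 0.01 (SE 0.46, adjusted p = 0.999 with the set term), and BCAS against control was 0.44 (SE 0.32, adjusted p = 0.994). Trpm3 was at 409.8 and 210.3 CPM in control, 181 and 266 in BCAS, 667 and 320.0 in TBI, and 447 and 279 in BCAS+TBI, with an interaction of 0.02 (SE 0.40, adjusted p = 0.998). No gene passed for the interaction or for BCAS against control in these 600 nuclei.

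**Figure D3:**
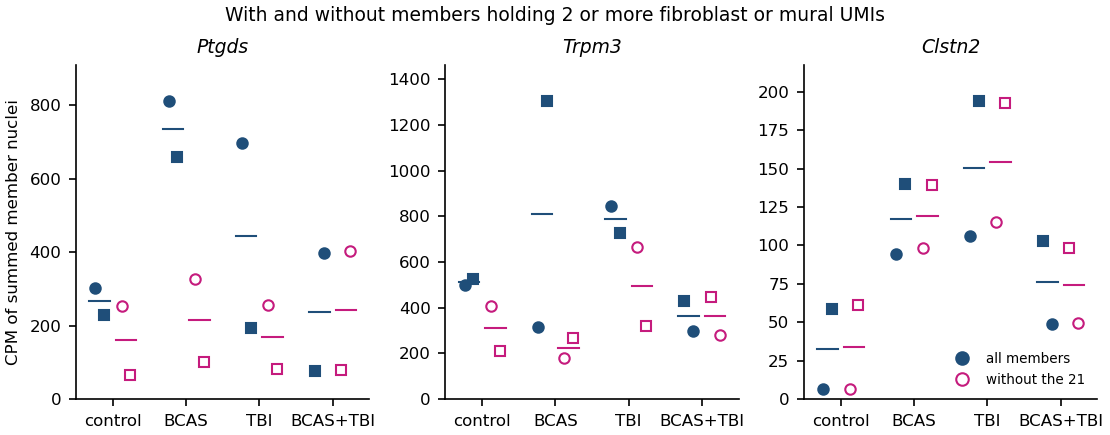
CPM of the summed member nuclei per library for Ptgds, Trpm3 and Clstn2 (circles set 1, squares set 2, lines the mean of 2 libraries), with all 621 members (filled) and without the 21 that held 2 or more fibroblast or mural UMIs (open). The high Ptgds values of BCAS 1, BCAS 2 and TBI 1 and the Trpm3 value of BCAS 2 drop, and the Clstn2 values stay nearly where they were.

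Clstn2 (calsyntenin-2, a synaptic adhesion protein; chr9:97444395-98033181, minus strand) did not depend on those nuclei. Its level was 6.74 and 58.6 CPM in the control libraries, 94.5 and 139.8 in BCAS, 106 and 194 in TBI, and 103 and 49.0 in BCAS+TBI. All 4 libraries with a single surgery stood above both control libraries, and BCAS+TBI overlapped with control. How many of all genes tested share this order was not counted. TBI against control was 2.13 (SE 0.42, adjusted p = 0.0428 with the set term) and 2.11 (adjusted p = 0.0328) without the 21 nuclei. The interaction was -2.73 (SE 0.58, adjusted p = 0.0435), and -2.76 (adjusted p = 0.0856) without them. Control 1 held 1 UMI of the gene, and without that library TBI against control was 1.70 (adjusted p = 0.200). Leaving out control 2, TBI 2 or either BCAS+TBI library also ended this call, with adjusted p-values of 0.147, 0.149, 0.0538 and 0.0514. Clstn2 is abundant in neurons: excitatory neuron nuclei held 440.1 to 726 CPM and the set-aside nuclei 149 to 358 CPM. The neuron list was highest in TBI 2, the library with the highest Clstn2, at 3452 CPM, and BCAS 2 came next in both. In set 1 the orders differed. There the list was at 2164 CPM in BCAS+TBI 2, 1671 in control 1, 1581 in TBI 1 and 1481 in BCAS 1. Clstn2 was at 49.0, 6.74, 106 and 94.5 CPM in the same libraries. The part of neuron RNA in the result was not tested.

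The genes called for BCAS averaged over TBI were Malat1, a nuclear long non-coding RNA (chr19:5795690-5802672, minus strand), and the mitochondrial ribosomal RNAs mt-Rnr1 and mt-Rnr2, named here after their values were seen. Malat1 was at 63108 and 27652 CPM in control, 51152 and 22590.3 in BCAS, 59825 and 28949.8 in TBI, and 59106 and 24743 in BCAS+TBI (set 1 first). Within each set the 2 libraries with BCAS were below the 2 without, by -0.20 on the log2 scale (SE 0.04, adjusted p = 0.0193), while the sets differed far more. BCAS against control was -0.29 (SE 0.06, adjusted p = 0.0274 with the set term). Leaving out BCAS 1 or TBI 2 ended the call for Malat1 averaged over TBI, at an adjusted p of 0.0677 and 0.222. Over both sets, Malat1, mt-Rnr1 and mt-Rnr2 each overlapped between the 4 libraries with BCAS and the 4 without, while 1.65% of all genes tested did not.

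mt-Rnr1 was at 4023 and 2752 CPM in control, 5689 and 3518 in BCAS, 3965 and 2159 in TBI, and 7761 and 2767 in BCAS+TBI (set 1 first). Within each set the 2 libraries with BCAS were again on 1 side, here above those without: 0.57 for mt-Rnr1 (SE 0.09, adjusted p = 0.000574) and 0.55 for mt-Rnr2 (SE 0.09, adjusted p = 0.000574). Without BCAS+TBI 2 the mt-Rnr1 value was 0.34 (adjusted p = 0.189). These were also the genes called for BCAS+TBI against TBI with the set term, at 0.71 for mt-Rnr1 (SE 0.13, adjusted p = 0.01209) and 0.59 for mt-Rnr2 (SE 0.12, adjusted p = 0.0445). Without BCAS+TBI 2 these were 0.25 for mt-Rnr1 and 0.15 for mt-Rnr2 (adjusted p = 0.979 for each). The mitochondrial share of member UMIs was highest in BCAS+TBI 2 (2.24%) and BCAS 1 (1.77%), and 0.686% to 1.19% in the other 6. mt-Rnr1 was also highest in these 2 libraries in astrocyte nuclei, at 8155 and 6856 CPM, and in excitatory neurons, at 5906 and 4277 CPM. Mitochondrial transcripts lie outside the nucleus; the part of carried-over cytoplasm in this result was not tested.

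**Figure D4:**
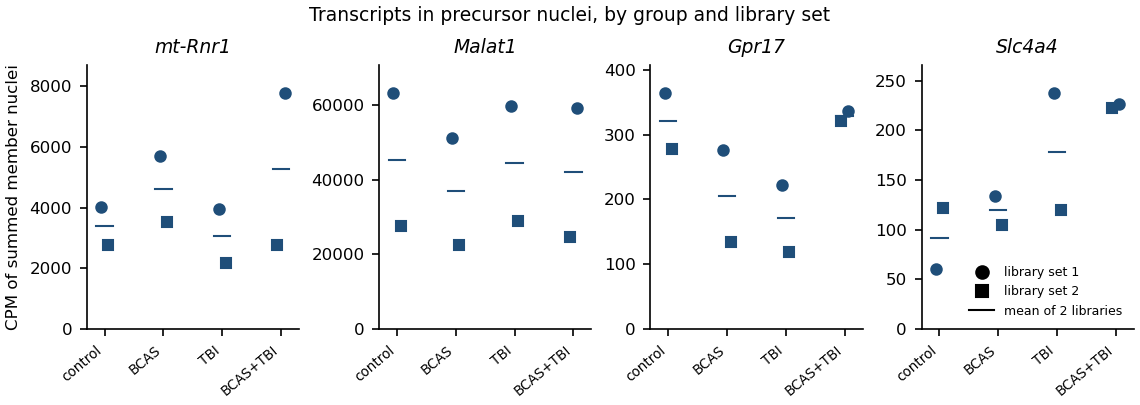
CPM of the summed member nuclei per library (circles set 1, squares set 2, lines the mean of 2 libraries) for mt-Rnr1, Malat1, Gpr17 and Slc4a4. Malat1 separates by set more than by group. For Gpr17, control 2 (278 CPM) and BCAS 1 (276 CPM) nearly coincide. The other control and BCAS+TBI libraries lie above the BCAS and TBI libraries, and the Gpr17 interaction did not pass the threshold.

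The genes with the smallest p for TBI averaged over BCAS did not pass the threshold in either fit. Slc4a4, a bicarbonate transporter that is abundant in astrocytes, was at 60.6, 122, 134 and 105 CPM in the libraries without TBI and at 237, 119, 223 and 227 CPM in those with it, a difference of 0.94 (SE 0.29, adjusted p = 1). Snx4, a sorting nexin of endosomes, was at 80.9, 68.3, 63.0 and 52.4 CPM without TBI and 38.7, 29.8, 21.4 and 12.3 with it (-1.38, SE 0.44). Ablim1, an actin-binding protein, was at 0, 14.6, 7.88 and 23.3 CPM without and 33.9, 89.5, 60.0 and 42.9 with it (2.23, SE 0.71). Snx4 and Ablim1 did not overlap between the 4 and 4 libraries, as did 1.88% of all genes tested.

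For the combined surgery the genes with the smallest p without the set term did not pass in that fit. Against control these were Ubr2, a ubiquitin ligase (1.38, SE 0.39), Miat, a long non-coding RNA (-1.77, SE 0.51), and Snx4 (-2.03, SE 0.63). Miat was at 80.9 and 127 CPM in control and at 34.3 and 24.5 in BCAS+TBI, and Ubr2 at 67.4 and 58.6 against 141 and 184. Against TBI alone they included the chromatin reader Zmynd8 (-1.15, SE 0.32) and the potassium channel Kcnc2 (-1.71, SE 0.48).

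Commitment towards oligodendrocytes was read from 12 genes, of which 6 had enough counts to be tested: Gpr17, Bcas1, Fyn, Itpr2, Tns3 and Tcf7l2. None of the 6 passed in any comparison (0 of 6, beside 0.0% of all genes without the set term). In the interaction 5 of the 6 were above 0 with a median of 0.71, where 49.9% of all genes tested were above 0 and their median was -0.00. For TBI against control 0 of 6 were above 0, with a median of -0.31, against 50.5% and 0.01 for all genes. Some genes of the list were scarce: Enpp6 had 15 UMIs over all members, Bmp4 15 and Myrf 11.

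Gpr17, a receptor of the committed stage, was detected in 35.6% of members. Its level was 364 and 278 CPM in the control libraries, 276 and 134 in BCAS, 222 and 119 in TBI, and 321 and 337 in BCAS+TBI. Both BCAS+TBI libraries and both control libraries stood above all 4 libraries with a single surgery, control 2 only narrowly. The control libraries overlapped with BCAS+TBI. The share of all genes tested with such an order was not counted. The interaction was 1.60 (SE 0.55, adjusted p = 1) and with the set term 1.68 (SE 0.38, adjusted p = 0.0838), short of the threshold in both. Bcas1, a myelin-lineage gene unrelated to the surgery of like name, was at 613 and 454 CPM in control, 394 and 489 in BCAS, 387 and 473 in TBI, and 754 and 484 in BCAS+TBI, with an interaction of 0.79 (SE 0.41, adjusted p = 1). Only its BCAS+TBI 1 and control 1 libraries stood apart. Fyn, a kinase of early myelination, was likewise highest in these 2, at 539.7 and 492 CPM, against 269.7 to 373 CPM in the other 6.

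Among the members themselves, nuclei with Gpr17 held more of some of the other committed genes. Those with at least 2 Gpr17 UMIs numbered only 3 (TBI 2) to 15 (BCAS+TBI 1) per library. In their CPM 1 UMI therefore weighed far more than in the sum of all members, and values of single libraries rest on few UMIs. In 71 nuclei with at least 2 Gpr17 UMIs Bcas1 averaged 1059 ± 549 CPM (SD, n = 8 libraries), against 403 ± 109.7 CPM in the 400 nuclei with 0, and was higher in 8 of 8 libraries. Fyn averaged 716 ± 484 CPM against 291 ± 63.0 CPM and was higher in 7 of 8. Tcf7l2, a Wnt pathway factor, was higher in 6 of 8. Tns3, a focal adhesion protein, was higher in 4 of 8 and Enpp6 in 2 of 8. Enpp6 was at 157 against 10.4 CPM in control 1 and at 106 against 0 in BCAS+TBI 1. In BCAS 2 it was at 0 against 8.11 CPM, and in the remaining libraries at 0 in both kinds of nuclei. The precursor genes differed among themselves. Tnr was higher in nuclei with Gpr17 in 7 of 8 libraries, at 4382 ± 1257 against 3135 ± 351 CPM, and Sox6 in 6 of 8. Ptprz1 was at 2831 ± 740.0 against 2804 ± 408 CPM and higher in 5 of 8, and Pdgfra was higher in 3 of 8. Gria4, an AMPA receptor subunit, was lower in nuclei with Gpr17 in 8 of 8 libraries, at 977 ± 268 against 1174 ± 231 CPM. Nuclei with Gpr17 were deeper in 7 of 8 libraries, and these values describe nuclei chosen by Gpr17, so no test was made. Such nuclei made up 3.95% of members in TBI 2 and 18.2% in control 2, the lowest and highest libraries.

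The share of nuclei with at least 2 UMIs of the 12 committed genes, after each nucleus was thinned to 1000 UMIs, was 52.5% and 49.2% in control, 45.5% and 50.0% in BCAS, 44.8% and 44.0% in TBI, and 64.7% and 51.9% in BCAS+TBI. Thinning left out 26 members under 1000 UMIs. Without thinning the shares were 73.3% to 91.4%. Over only 4 of the genes (Bcas1, Enpp6, Gpr17 and Bmp4) the thinned share ranged from 11.5% in TBI 1 to 24.7% in BCAS+TBI 1. The share thus depends on the list and the limit, and it does not count committed nuclei. With TBI the thinned share over the 12 genes averaged 51.3% ± 9.58 and without it 49.3% ± 2.92 (SD, n = 4 each, exact permutation p = 0.800). With BCAS it averaged 53.0% ± 8.25 and without it 47.6% ± 3.97 (exact permutation p = 0.286). Adjusted over the 4 tests of committed and cycling shares, both p-values were 1. Within the sets the difference was -0.0106 points in set 1 and 10.8 in set 2 for BCAS, and -0.638 and 4.75 for TBI.

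Transcripts of the cell cycle were sparse in the members. At least 2 UMIs over 24 genes of the cell cycle were found in 55 of 621 nuclei, and at least 5 in 12. Top2a, a topoisomerase of dividing cells, was detected in 17 nuclei and Mki67 in 9. The 12 nuclei with at least 5 UMIs were 0 and 1 in the control libraries, 0 and 3 in BCAS, 2 and 2 in TBI, and 4 and 0 in BCAS+TBI, and 1 nucleus of TBI 1 had 28. After thinning the share with at least 2 UMIs was 3.91% ± 2.74 with TBI and 3.88% ± 2.36 without (SD, n = 4 each; exact permutation p = 1). With BCAS it was 4.33% ± 3.04 and without it 3.46% ± 1.82 (exact permutation p = 0.600). Both differences had opposite signs in the 2 sets, at -0.649 and 0.699 points for TBI and -1.85 and 3.60 for BCAS. With 1 UMI as the limit the thinned shares were 8.64% to 21.3%, so the share depends on the limit, and at this depth a nucleus without such UMIs is not shown to be resting. Only Diaph3 of the 24 genes reached the count filter, at 36.8 to 102 CPM, and Aurkb had 0 UMIs in all members, which allows up to 3 of 1456403.

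No identity or signalling gene passed a test between the groups. Of 19 genes of precursor identity 18 were tested and 0 passed in any comparison in either fit. Their median difference was 0.02 for TBI and -0.03 for BCAS, with a range of -0.28 to 0.22 for TBI. Tnr was at 3221 and 3572 CPM in control and at 4052 and 3022 CPM in BCAS+TBI 1 and 2. Among 19 growth factor receptors 13 were tested and 0 passed; Erbb4, a neuregulin receptor, lay between 2015 and 2615 CPM, and Fgfr2, a fibroblast growth factor receptor, between 190.3 and 478 CPM. Of 25 genes that steer differentiation, such as the Notch and Wnt pathways, 14 were tested and 0 passed. Zeb2, a transcription factor of this lineage, lay between 595 and 942 CPM.

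Nor did any gene of the receptor, channel, matrix and motility lists. Of 28 glutamate and GABA receptor genes 24 were tested and 0 passed, with a median of 0.10 for TBI and -0.23 for the interaction, in which 4 of 24 were above 0 (49.9% of all genes). The list summed highest in TBI 2, at 12172 CPM against a median of 9588 CPM over the libraries, and TBI 2 also had the highest neuron list. It split by library set, at 8518 to 9029 CPM in set 1 and 10146 to 12172 CPM in set 2, which holds TBI 2. The parts of neuron RNA and of the library set in this were not tested. Gria2, an AMPA receptor subunit, lay between 1109.5 and 1686 CPM and Grm5, a metabotropic glutamate receptor, between 1001 and 1552 CPM. Gria1, a further AMPA subunit, was at 94.3 and 73.2 CPM in control and at 96.7 and 338 CPM in TBI, where TBI 2 alone was high. Of 24 ion channel genes 20 were tested and of 23 matrix and proteoglycan genes 18, with 0 passing in both. Kcnd2, an A-type potassium channel, lay between 3414 and 5213 CPM, and the proteoglycan Cspg5 between 722 and 1416 CPM. Of 24 guidance and motility genes 15 were tested and 0 passed; Dcc, a netrin receptor, lay between 1536 and 2149 CPM.

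Stress and myelin genes were low or uneven. Of 15 myelin genes 4 were tested. Mbp, the myelin basic protein, was at 47.2 and 29.3 CPM in control, 110.3 and 69.9 in BCAS, 87.0 and 34.8 in TBI, and 107 and 98.1 in BCAS+TBI, a BCAS difference of 0.99 (SE 0.36, adjusted p = 1). Of 21 interferon and antigen-presentation genes 1 was tested, H2-D1, and the list summed to 117 to 269.6 CPM. Of 12 immediate early genes 0 were tested, and they summed to 74.6 to 172 CPM. Of 19 hypoxia and glycolysis genes 4 were tested, of 12 glucocorticoid targets 6, and of 15 cholesterol genes 2, and 0 passed in each. Vegfa, a vascular growth factor, lay between 119 and 244 CPM, and the glucocorticoid target Sgk1 between 108 and 268 CPM.

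Of the neuron transcripts that remained in the members, those on the lists did not pass. Of 10 neuron-enriched genes taken from earlier results of these data, 7 were tested, and all 7 had an interaction below 0 with a median of -0.86 (49.9% of all genes were above 0). Since that choice was made on these samples, the direction is no independent evidence. Meg3, an imprinted long non-coding RNA, was at 431 and 409.9 CPM in control, 378 and 903 in BCAS, 517 and 1179 in TBI, and 488 and 693 in BCAS+TBI (-1.14, SE 0.59, adjusted p = 1). BCAS 2 and TBI 2 were the 2 highest libraries. Snhg11, a neuronal long non-coding RNA, was at 209 and 151 CPM in control, 110.3 and 355 in BCAS, 189 and 711 in TBI, and 231 and 319 in BCAS+TBI (-1.13, SE 0.80, adjusted p = 1). Cntnap2, a neurexin family adhesion protein, was at 283 and 298, 94.5 and 454, 198 and 482, and 201 and 159 CPM in the same order (-0.86, SE 0.74, adjusted p = 1).

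The same 2 libraries, BCAS 2 and TBI 2, had the highest neuron list in the members, at 2650 and 3452 CPM against 1481 to 2164 CPM in the other 6, and the largest set-aside shares. In the set-aside nuclei Meg3 lay between 3205 and 6267 CPM and Cntnap2 between 994 and 3064 CPM. In excitatory neurons the 2 genes lay between 6814 and 8211 CPM and between 2055 and 3306 CPM. With the 358 set-aside nuclei put back, the fit with the set term called 2 genes for TBI averaged over BCAS, Zfp804b and Gria1, and 0 for the interaction. Over the 348 members with 0 neuron UMIs the Cntnap2 interaction was 0.61 without the set term, the opposite sign. The part of remaining neuron RNA in these values was not tested.

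**Figure D5:**
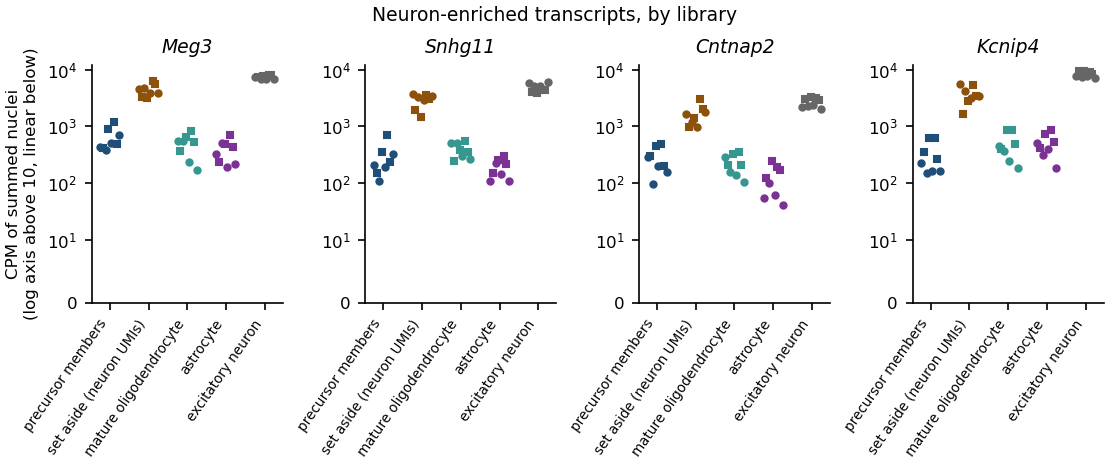
CPM of the summed nuclei (log axis above 10, linear below) of 4 neuron-enriched transcripts in 5 kinds of nuclei, 1 point per library (circles set 1, squares set 2). Members lie near astrocytes and mature oligodendrocytes, the set-aside nuclei lie between them and excitatory neurons.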

How the data were processed

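Flash-frozen tissue gave nuclei for 10x Genomics 3' libraries, 1 per sample, with about 3000 droplets targeted; the matrices hold 6191 to 7882 barcodes each. The deposited values are raw UMI counts per gene and barcode, written by Cell Ranger 7.0.0 per the file headers; GRCm38 (mm10) and Seurat come from the submitters' processing notes. Of 54232 gene identifiers 99.7% are in GENCODE M21 (GRCm38), the source of the coordinates.

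Members were selected per nucleus as given above, and their counts were summed per library. No doublet caller was run: the limit of 8000 UMIs and the marker limits removed nuclei. Excitatory neurons needed 3 or more UMIs of Slc17a7 and Slc17a6, astrocytes 2 or more of Aqp4 and mature oligodendrocytes 2 or more of Mog and Mag, each without the markers of the others. Genes with enough counts by edgeR's filterByExpr (minimum count 10) were tested over all 8 libraries with edgeR 4.0.16 (quasi-likelihood, TMM, group as the only term, two-sided, adjusted p under 0.05) in R 4.3.3; the 17 rule genes entered library sizes only. TMM factors were 0.985 to 1.01. DESeq2 1.42.0, a term for the library set, other limits and each library left out were alternatives. The tests were tried on simulated data first. Shares were compared by exact permutation over 70 assignments. Wilson intervals (scipy 1.17.1) cover counting error only. UMI counts of 1 library are 1 sample.

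Named genes were, per comparison, up to 10 past the threshold without the set term, then up to 10 with it, or else the 3 with the smallest p; predicted and mitochondrial genes were left out, and listed genes are named for their list. 1 gene that this rule names is not reported here. The members, lists and library sets were chosen with earlier results of these data known. Replicate numbers did not pair the libraries: deviations of same-numbered libraries correlated at -0.41 to 0.35, with the sign set by the library set.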

Additional observations from a re-analysis of the deposited data

Results flagged for a closer look

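Trpm3 in BCAS 2, at 1305 CPM, lay farther from the other 3 libraries with BCAS surgery than a Dixon test at the 95% level allows; chance flags about 1 in 20 groups.

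For 3 genes the TBI effect differed between libraries with and without BCAS by the interaction test with the library set as a term. On the log2 scale the differences were -2.46 for Ptgds, -1.80 for Trpm3 and -2.73 for Clstn2. Without the set term 0 genes passed for the interaction, and DESeq2 called 0 with or without it. The Trpm3 value rested largely on BCAS 2, as given above. Without the 21 nuclei with fibroblast or mural UMIs Ptgds was at 0.01 and Trpm3 at 0.02. Clstn2 was then at -2.76 and no longer past the threshold.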

How the results depend on the processing

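With at most 90 nuclei per library and 2 libraries per group, low transcripts could not be tested, and 1 library can decide a value. Counts of genes past the threshold are given in the order TBI averaged over BCAS, BCAS averaged over TBI, interaction, each of TBI, BCAS and BCAS+TBI against control, then both surgeries against TBI alone, and any difference among the 4 groups. Without the set term all 8 counts were 0 under the replicate block (0 for each), DESeq2, RLE normalization, a minimum count of 30, a neuron limit of 0, a marker minimum of 6, at least 1000 UMIs, thinning, the nuclei without vascular UMIs, the set-aside nuclei put back, and each library left out. With no filter on low counts any difference called 4. No result was moved across the threshold by the replicate block, and replicate numbers do not pair the libraries.

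With the library set as a block the counts were 0, 3, 3, 1, 2, 0, 2 and 4. Added to it, RLE normalization gave 0, 3, 1, 0, 1, 0, 1 and 4, at least 1000 UMIs 0, 3, 1, 0, 2, 0, 1 and 4, a marker minimum of 6 UMIs 0, 3, 3, 6, 1, 0, 3 and 8, and no filter on low counts 0, 3, 7, 3, 4, 3, 11 and 19. Thinning to 1000 UMIs gave 0, 2, 1, 0, 1, 0, 1 and 2, the nuclei without vascular UMIs 0, 3, 0, 1, 0, 0, 1 and 2, the set-aside nuclei put back 2, 0, 0, 2, 0, 1, 0 and 1, and a neuron limit of 0 or DESeq2 0 throughout. With each library left out in turn under this block the counts ranged from 0 to 7, 2 to 7, 0 to 16, 0 to 12, 0 to 6, 0 to 5, 1 to 9 and 6 to 26. The largest, 26 for any difference and 16 for the interaction, were without TBI 1; the cause was not tested.

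These settings turned a direction. The BCAS difference in the share of member nuclei was 0.0792 points within set 2 and 0.0274 thinned to 1000 UMIs, and the BCAS difference in cycling nuclei -0.248 with 1 UMI and -1.48 not thinned. Without vascular UMIs the TBI differences in committed and cycling nuclei were -0.0726 and -0.369, and the interactions were 0.0448 for Ptgds and 0.0054 for Trpm3, or 0.0056 and 0.0191 with the set as a block. The Cntnap2 interaction was 0.61 at a neuron limit of 0 and 0.63 there with the block, and that of Slit2 0.0219 with the set-aside nuclei and 0.0138 there with the block. With each library left out, values with a changed direction ranged from -0.37 to 2.44 (Apod, TBI against control), -1.56 to 0.75 (Cntnap2), -1.69 to 1.81 (Grm8), -1.95 to 0.18 (Kcnip4), -0.80 to 0.57 (Slit2) and -1.81 to 0.13 (Snhg11) for the interaction, -0.98 to 0.41 and -0.58 to 0.17 (Malat1, BCAS against control and averaged), and -0.16 to 1.33 and -0.24 to 1.23 (mt-Rnr1 and mt-Rnr2, BCAS+TBI against TBI). The BCAS difference in member share ranged from -0.210 to 0.0276, and the TBI differences in committed and cycling shares from -2.40 to 4.50 and -0.740 to 1.33 points. The causes were not tested.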
